A study of Homo sapiens with 4 samples.

Results

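The genes described here are 10 genes of the major histocompatibility complex (MHC) class I antigen processing pathway: B2M, HLA-E, HLA-F, TAP1, TAP2, TAPBP, PSMB8, PSMB9, PSMB10 and ERAP1. They were read by the 25 probe sets whose platform annotation gives one of these symbols as the only gene, out of 54613 probe sets on the array without its controls. RNA came from MDA-MB-361 cells, a HER2-positive human breast cancer line, and was measured on 4 Affymetrix U133 Plus 2.0 arrays. A single array came from each of 3 derivatives, labelled shDCD clone 1, clone 2 and clone 3, which carry hairpins against different regions of the transcript of dermicidin (DCD) in the lentiviral vector pLKO. The control was 1 array from cells that carry the pLKO vector with no DCD hairpin. All 4 derive from the same line and carry the vector, each hairpin is represented by 1 derivative, and no group has a second array of the same cells.

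MHC class I molecules show fragments of a cell's own proteins to CD8+ T cells and to natural killer cells. Proteins are cut by the proteasome, in which the subunits PSMB8, PSMB9 and PSMB10 replace the constitutive catalytic subunits to form the immunoproteasome. TAP1 and TAP2 form the pump that carries peptides into the endoplasmic reticulum, ERAP1 trims them there, and TAPBP (tapasin) holds the empty class I molecule at the pump. The loaded heavy chain leaves for the cell surface in complex with B2M, and most of these genes are induced together by interferon-gamma. In breast cancer as in other carcinomas, low class I display is known as a route of escape from T cells.

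The interferon-gamma response of these genes is known to run in part through interferon regulatory factors, so the starts of the genes are shown first. In the RefSeq windows of 250 bases before to 50 bases after a gene's start (assembly GRCh38.p14), 12 windows were found for 9 of the genes, all but HLA-E. The letters GAAANNGAAA, a core of the interferon regulatory factor element, were searched on both strands. They stood in windows of 8 of the 9 genes, against 4.38% of the 27305 genes in the table, and in 8 of the 12 windows, against 3.57% of 35116 windows. PSMB9 was the gene with no match. The bases before the starts of B2M (chr15:44711267-44711516, plus strand) and TAP1 (chr6:32853705-32853954, minus strand) are printed because each holds a pair of overlapping matches, B2M is the subunit that every class I molecule needs, and TAP1 is the pump subunit that could be measured. Capitals mark the matches, which read GAAANNGAAA or its reverse complement.
B2M: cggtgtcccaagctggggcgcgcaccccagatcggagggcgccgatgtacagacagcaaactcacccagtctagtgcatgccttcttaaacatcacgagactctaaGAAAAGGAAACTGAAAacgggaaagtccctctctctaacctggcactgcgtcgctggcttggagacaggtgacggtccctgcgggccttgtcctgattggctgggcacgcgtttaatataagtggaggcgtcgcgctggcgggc
TAP1: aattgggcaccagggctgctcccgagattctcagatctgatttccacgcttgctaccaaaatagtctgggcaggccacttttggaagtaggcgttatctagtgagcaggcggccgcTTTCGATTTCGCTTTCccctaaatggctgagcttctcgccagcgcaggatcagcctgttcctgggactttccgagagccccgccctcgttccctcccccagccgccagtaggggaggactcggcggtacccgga

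The other matches are shown as windows of 30 bases, with the match in capitals, to let the elements be compared. They are HLA-F (chr6:29723268-29723297, plus strand), TAP2 (chr6:32838778-32838807, minus strand), TAPBP (chr6:33314079-33314108, minus strand), PSMB8 (chr6:32844032-32844061, minus strand), PSMB10 (chr16:67936852-67936881, minus strand) and ERAP1 (chr5:96807924-96807953, minus strand).
HLA-F: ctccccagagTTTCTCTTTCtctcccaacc
TAP2: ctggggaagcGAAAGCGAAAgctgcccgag
TAPBP: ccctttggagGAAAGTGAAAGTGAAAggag
PSMB8: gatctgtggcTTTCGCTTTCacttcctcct
PSMB10: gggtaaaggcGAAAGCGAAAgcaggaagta
ERAP1: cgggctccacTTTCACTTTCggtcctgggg

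TAP1, PSMB8 and ERAP1 each have 2 RefSeq starts, numbered in the direction of transcription. With the first base at a start counted as 0, the matches of B2M, HLA-F and TAP1 (start 1) began at -144, -156 and -134, and that of TAP2 at -58. The matches of TAPBP, PSMB8, PSMB10 and ERAP1 lay close to a start, beginning at -20, -4, -21 and 2. Those of PSMB8 and ERAP1 are at start 2, and start 1 of these genes has none. In TAPBP, as in B2M and TAP1, a second match began 6 bases after the first and overlaps it. TAP1 and PSMB9 are transcribed away from each other from starts 488 bases apart, and the TAP1 matches lie 354 and 360 bases from the PSMB9 start, outside its window. A gamma-activated site (TTCNNNGAA) was found for PSMB8 and TAP1, at start 2 of each, against 9.38% of all genes. An NF-kB site was found for B2M, TAP1, TAPBP and ERAP1, against 10.7%. CCAAT was found for 5 of the 9 genes, against 39.7%, and TATAAA for TAP2 alone, against 14%. A match is a stretch of letters and does not show that a factor binds there.

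**Figure D1:**
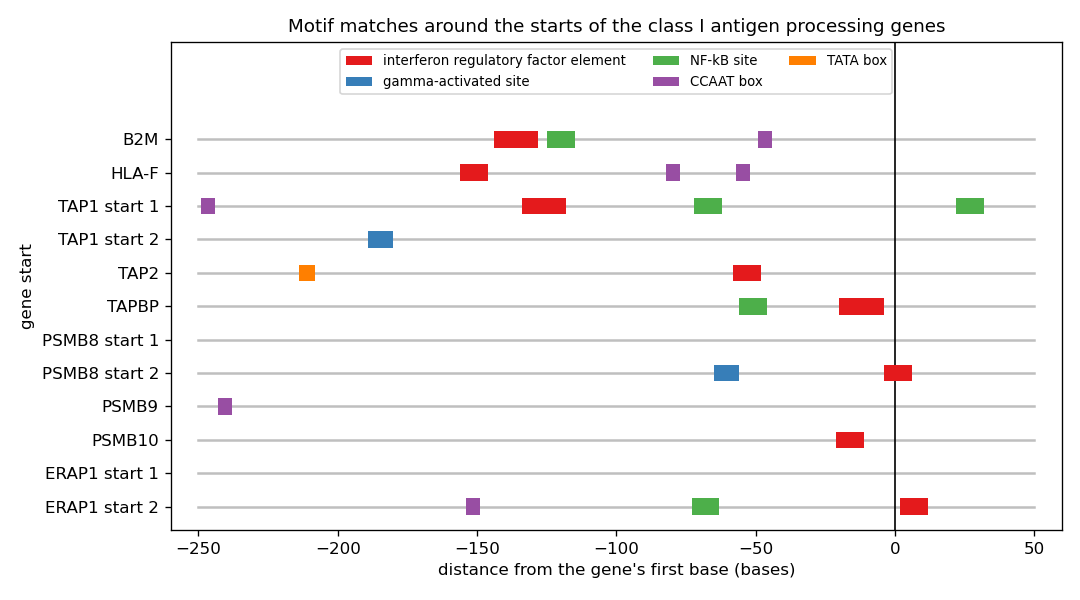
Positions of motif matches on either strand (coloured bars) around 12 RefSeq starts of 9 genes, with the distance from the gene's first base in bases on the horizontal axis and 1 row per start. Red bars, the interferon regulatory factor letters, stand in 8 rows, each from a different gene, and the PSMB9 row has none.

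Some facts of the arrays bear on every value below. The deposited intensities are linear and differ in level between arrays, with a median of 20 in clone 1, 24.7 in clone 2 and 13.4 in clone 3, against 20.6 in pLKO, while 18 spiked control probe sets averaged between 4153 and 4728. They were therefore quantile normalized, set to a floor of 16 and taken as log2, and the 27307 probe sets whose mean reached the median were tested. The ACTB control probe sets give a 3'/5' ratio, which is high where RNA is degraded or poorly labelled. It was 9.67 in clone 1, 2.58 in clone 2 and 42.6 in clone 3, against 5.29 in pLKO. That of GAPDH was 2.18, 1.02 and 13.1 in clones 1 to 3, against 1.09 in pLKO. Clone 3 also stood apart over all tested probe sets, with a correlation of 0.72 with pLKO, against 0.89 for clone 1 and 0.94 for clone 2. DCD had an intensity of 7, 6 and 2.7 in clones 1 to 3 and 2 in pLKO, all under the floor, so the arrays do not check the knockdown. All 8 luminal epithelial markers were measurable on the arrays, while of 6 leukocyte markers with a probe set, LYZ alone passed the filter and PTPRC, CD3E, CD14, CD74 and HLA-DRA did not. Of 6 stromal and endothelial genes 4 passed it, with COL1A2 (log2 differences 1.29, 0.42 and 0.68 in clones 1 to 3) and DCN (0.77, 1.22 and 1.07, with pLKO on the floor) above pLKO, PECAM1 below it in all 3 clones and COL1A1 on both sides, and their part in the members' levels was not tested. Each value is an average over a culture, so fewer cells with a transcript and less of it per cell cannot be told apart.

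Of the 25 probe sets, 14 passed the filter, and they read 8 genes. All 4 probe sets of TAP2 and the single one of PSMB9 did not pass. None of the 14 was at least 3-fold lower, or at least 3-fold higher, in each of the 3 comparisons, a rule met by 0.179% of all tested probe sets in the lower and 0.0366% in the higher direction. In limma, fitted across all tested probe sets with Benjamini-Hochberg adjustment, no probe set of any gene was called (0%), and the adjusted p of every member was 0.9998. At an unadjusted p under 0.05, limma gave 125 probe sets lower and 81 higher over the array and 0 among the members, whose unadjusted p ran between 0.18 and 0.88. The fit takes its spread from 3 arrays of different hairpins, with 2 residual degrees of freedom, so the spread of pLKO, with its single array, is taken from theirs. All 3 comparisons share that array, so whatever sets the pLKO culture apart enters each of them.

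**Figure D2:**
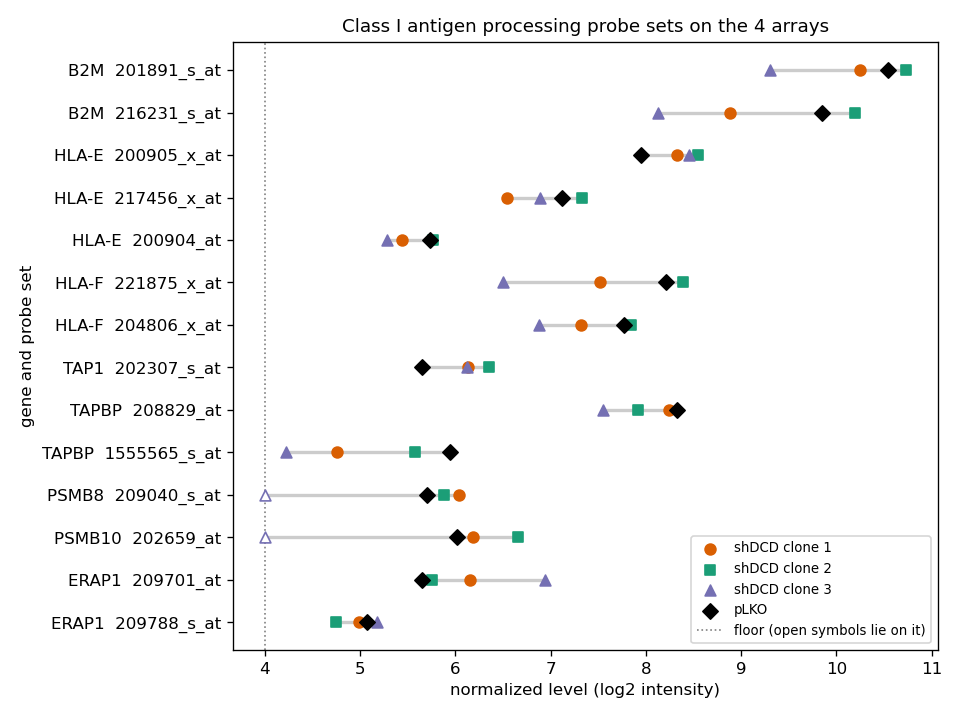
Normalized level (log2 intensity, horizontal axis) of the 14 tested probe sets on each of the 4 arrays, with shDCD clones as coloured symbols, pLKO as a black diamond and the floor as a dotted line. Clone 3 lies on the floor (open symbols) for PSMB8 and PSMB10, and no other array does for any of the probe sets.

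B2M, the light chain that all class I molecules share, was close to pLKO in clone 2, lower in clone 1 and lowest in clone 3. Its brighter probe set (201891_s_at) had deposited intensities of 999.2 in clone 1, 3075.8 in clone 2 and 309.1 in clone 3, against 2125.2 in pLKO. After normalization these were 1212, 1695 and 629 in clones 1 to 3, against 1486 in pLKO. The level was thus 1.23-fold lower in clone 1, 1.14-fold higher in clone 2 and 2.36-fold lower in clone 3 than in pLKO, a mean log2 difference of -0.45 ± 0.73 (SD, n = 3) that is smaller than the spread between the clones (limma, unadjusted p = 0.573). The mean was -0.045 without clone 3 and -0.77 without clone 2. The other tested probe set (216231_s_at) had deposited intensities of 388.3, 2157.1 and 141 in clones 1 to 3, against 1280.8 in pLKO, and log2 differences of -0.96, 0.35 and -1.72. Both probe sets placed the arrays in the same order, with clone 2 highest, then pLKO, clone 1 and clone 3. The remaining B2M probe set (232311_at) had intensities between 3 and 23 and was not tested.

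HLA-F, a nonclassical heavy chain that can reach the surface without peptide, followed the same order. The brighter probe set (221875_x_at) had deposited intensities of 158.7 in clone 1, 592 in clone 2 and 50.9 in clone 3, against 388.8 in pLKO. Its log2 differences from pLKO were -0.69 in clone 1, 0.18 in clone 2 and -1.71 in clone 3. The second (204806_x_at) read 139, 402 and 64.3 in clones 1 to 3, against 282.3 in pLKO, with log2 differences of -0.45, 0.08 and -0.88. Clone 2 was thus within 1.13-fold of pLKO for both, and clone 3 was 3.27-fold lower by the brighter and 1.85-fold lower by the second. The brighter probe set's mean log2 difference was -0.74, and -0.26 without clone 3. Names ending in _x_at mark probe sets with probes that also match other transcripts, so these readings may not be of HLA-F alone. The third (221978_at) was not tested, with intensities of 5.4, 10.2 and 9.7 in clones 1 to 3, against 20.8 in pLKO.

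HLA-E, the heavy chain that presents leader peptides of other class I molecules to the natural killer receptor CD94/NKG2A, gave different answers by its 3 probe sets. The brightest (200905_x_at) had deposited intensities of 273.1 in clone 1, 666.2 in clone 2 and 175 in clone 3, against 322.7 in pLKO. After normalization all 3 clones lay above pLKO, by 1.30-fold, 1.52-fold and 1.42-fold in clones 1 to 3 (mean log2 difference 0.50 ± 0.11, SD, n = 3; limma, unadjusted p = 0.462), but clones 1 and 3 lay below it after median centring (-0.20 and -0.26) and in the values as deposited (-0.24 and -0.88). The median of all tested probe sets was itself shifted in the values as deposited, by -0.38, 0.36 and -0.91 in clones 1 to 3, and relative to it this probe set stood at 0.12, 0.71 and 0.01. The second probe set (217456_x_at) had log2 differences of -0.58, 0.21 and -0.23 in clones 1 to 3, and the third (200904_at), the only one without probes shared with other transcripts by its name, -0.29, 0.03 and -0.46. In clone 2 all 3 probe sets were above pLKO under each scaling. In clones 1 and 3 they lay on both sides of it after quantile normalization, and all 3 lay below it after median centring and as deposited.

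TAP1 was the pump subunit that could be measured, and it was above pLKO on all 3 shDCD arrays after quantile normalization and after median centring, though not in clone 3 in the values as deposited. Its probe set (202307_s_at) had deposited intensities of 63.6 in clone 1, 129.1 in clone 2 and 40.7 in clone 3, against 58.7 in pLKO. After normalization these were 70.2, 81.7 and 69.5 in clones 1 to 3, against 50.3 in pLKO. The level was 1.40-fold higher in clone 1, 1.62-fold in clone 2 and 1.38-fold in clone 3 (mean log2 difference 0.55 ± 0.13, SD, n = 3). All 3 clones lay above the single pLKO value, as 19.4% of all tested probe sets did, and limma gave an unadjusted p of 0.419. The log2 difference of clone 3 was -0.53 in the values as deposited, where the median of all probe sets was -0.91.

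Its partner TAP2 was at or near the floor. The brightest of its 4 probe sets (204769_s_at) had deposited intensities of 7.4 in clone 1, 42.9 in clone 2 and 12.7 in clone 3, against 12.7 in pLKO. In clone 2 its normalized intensity was 31.9, against pLKO on the floor, which is at least 1.99-fold higher and was not tested. The other 3 (225973_at, 204770_at and 208428_at) had deposited intensities between 4.4 and 22.3 on all 4 arrays.

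TAPBP was the member whose tested probe sets were all below pLKO in each clone, by quantile normalization and by median centring. The brighter (208829_at) had deposited intensities of 257.8 in clone 1, 422.4 in clone 2 and 97.8 in clone 3, against 421.7 in pLKO. Its log2 differences were -0.09, -0.41 and -0.78 in clones 1 to 3, or 1.06-fold, 1.33-fold and 1.71-fold lower. In the values as deposited clone 2 was level with pLKO (log2 difference 0.00), where the median of all probe sets was 0.36 higher. The dimmer (1555565_s_at) read 27.4, 68.5 and 13.1 in clones 1 to 3, against 74.4 in pLKO, and was 2.28-fold, 1.29-fold and 3.29-fold lower. That is a mean log2 difference of -1.09 ± 0.68 (SD, n = 3), with the smallest unadjusted p among the members (limma, 0.182). The remaining TAPBP probe set (210294_at) had intensities between 2.6 and 11.6 and was not tested.

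Of the immunoproteasome subunits, PSMB8 and PSMB10 could be tested, and both were on the floor in clone 3 and on no other array. PSMB8 (209040_s_at), which carries the chymotrypsin-like activity, had deposited intensities of 59.7 in clone 1, 88.4 in clone 2 and 3.8 in clone 3, against 61.1 in pLKO. Its log2 differences were 0.33 in clone 1 and 0.18 in clone 2, and clone 3 was on the floor, at least 3.25-fold lower. PSMB10 (202659_at), the trypsin-like subunit, had 66.1, 164.6 and 10 in clones 1 to 3, against 78.9 in pLKO, with log2 differences of 0.17 and 0.64 in clones 1 and 2 and a level at least 4.06-fold lower in clone 3. Clone 3 was the exception for both genes, since clones 1 and 2 were both above pLKO after normalization, which in clone 1 held for neither gene in the values as deposited (-0.03 for PSMB8 and -0.26 for PSMB10) and after median centring not for PSMB10 (-0.21). PSMB9 (204279_at), which shares its upstream region with TAP1, read 25.9, 24.3 and 6.8 in clones 1 to 3, against 2.9 in pLKO, and was not tested.

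ERAP1, the aminopeptidase that trims peptides to the length class I molecules bind, was the gene whose brightest probe set was highest in clone 3 after normalization, though not in the deposited intensities. That probe set (209701_at) had deposited intensities of 64.6 in clone 1, 79.4 in clone 2 and 66.6 in clone 3, against 58.8 in pLKO. After normalization it was 1.42-fold, 1.07-fold and 2.44-fold higher in clones 1 to 3, and it lay above pLKO in all 3 clones in the values as deposited and after median centring as well. Its mean log2 difference was 0.63, and 0.32 without clone 3. The second tested probe set (209788_s_at) had 31.9, 35.5 and 23.9 in clones 1 to 3, against 37.3 in pLKO, and log2 differences of -0.08, -0.33 and 0.10. It lay below pLKO in all 3 clones after median centring (-0.18, -0.33 and -0.02) and in the values as deposited (-0.23, -0.07 and -0.64). The probe sets of ERAP1 thus did not give the same direction, and its other 3 (214034_at, 210385_s_at and 214012_at), with intensities between 1.3 and 29.1, were not tested.

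**Figure D3:**
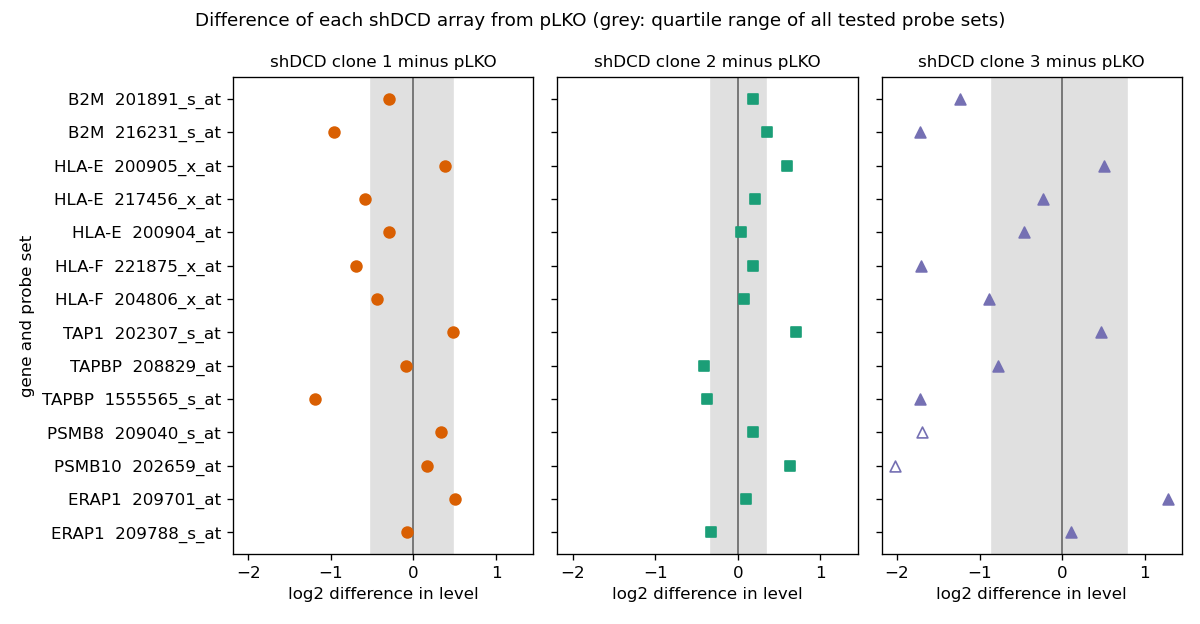
Log2 difference of each shDCD array from pLKO (horizontal axis) for the 14 tested probe sets, 1 panel per clone, with the quartile range of all tested probe sets shaded and open symbols for levels on the floor. Most members lie within or near the shaded band in clones 1 and 2. In clone 3 the band is wider, and 7 probe sets lie to the left of its edge at -0.85, the lower quartile of all tested probe sets.

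Over the 8 genes, each by its brightest tested probe set, the median log2 difference was 0.25 in clone 1 (range -0.69 to 0.50), 0.19 in clone 2 (-0.41 to 0.70) and -1.01 in clone 3 (-2.02 to 1.29), where the median of all tested probe sets was 0 in clones 1 and 2 and -0.00 in clone 3. Over the 14 probe sets the median was -0.19, 0.18 and -0.83 in clones 1 to 3, so the sign in clone 1 depends on which probe sets stand for the genes. It also depends on the scaling, since over the 8 genes the clone 1 median was -0.21 when arrays were centred on their medians and -0.25 as deposited. In clone 1, 1 member probe set, of TAPBP, was at least 2-fold lower and 0 were at least 2-fold higher, against 10.2% and 8.38% of all tested probe sets. In clone 2 there were 0 in either direction, against 4.09% lower and 3.61% higher. In clone 3, 6 of the 14 were at least 2-fold lower, against 21.3%, and they read B2M (both probe sets), HLA-F, TAPBP, PSMB8 and PSMB10. The 1 member at least 2-fold higher in clone 3 was ERAP1, against 19.4% of all tested probe sets.

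Few members lay on the same side of pLKO in every clone. Both TAPBP probe sets were below pLKO on all 3 shDCD arrays, 2 of 14 against 20.0% of all tested probe sets. The HLA-E probe set 200905_x_at, TAP1 and the ERAP1 probe set 209701_at were above it on all 3, 3 of 14 against 19.4%. Both counts are near what all probe sets gave, and in the values as deposited ERAP1 209701_at was the 1 member above pLKO on all 3. Without clone 3, whose 3'/5' ratios were the highest, 3 of 14 were below pLKO in both other clones, against 30.1%, with ERAP1 209788_s_at joining TAPBP. In the same setting 5 of 14 were above it, against 31.1%, with PSMB8 and PSMB10 joining. Without clone 2, 15 member probe sets passed the filter and 8 of them, the tested ones of B2M, HLA-F and TAPBP and 2 of HLA-E, were below pLKO in clones 1 and 3, the arrays with the higher 3'/5' ratios, against 32.0%, and 3 were above, against 31.9%.

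The order clone 2, pLKO, clone 1, clone 3, high to low, was shown by 5 of the 14 member probe sets and by 9.27% of all tested probe sets. The 5 were both of B2M, both of HLA-F and HLA-E 200904_at, and probe sets of 1 gene are not independent of each other. This order was picked after these values were seen, from B2M and HLA-F among others. The 5 of 14 beside 9.27% is thus a description and not a test. The other heavy chains showed the order as well. HLA-B (209140_x_at) had deposited intensities of 418.9, 1988.8 and 46.2 in clones 1 to 3, against 1185.6 in pLKO, and HLA-C (216526_x_at) had 1212.9, 4014.3 and 209.4, against 2791.5 in pLKO. Of the 11 tested probe sets of HLA-B, HLA-C and HLA-G, 10 had this order, and all lay between -3.41 and -0.89 in clone 3. The exception, a probe set of HLA-G, was on the floor in clones 1 and 3. All 11 have names ending in _x_at, so their probes may match each other's transcripts. They are thus not independent readings of separate heavy chains. The order is the reverse of that of the ACTB and GAPDH ratios given above, in which clone 2 was lowest and clone 3 highest, and the part of RNA quality in these levels was not tested. With median centring 7 of the 14 member probe sets had the order, against 18.7% of all tested, and in the values as deposited 10, against 34.3%.

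**Figure D4:**
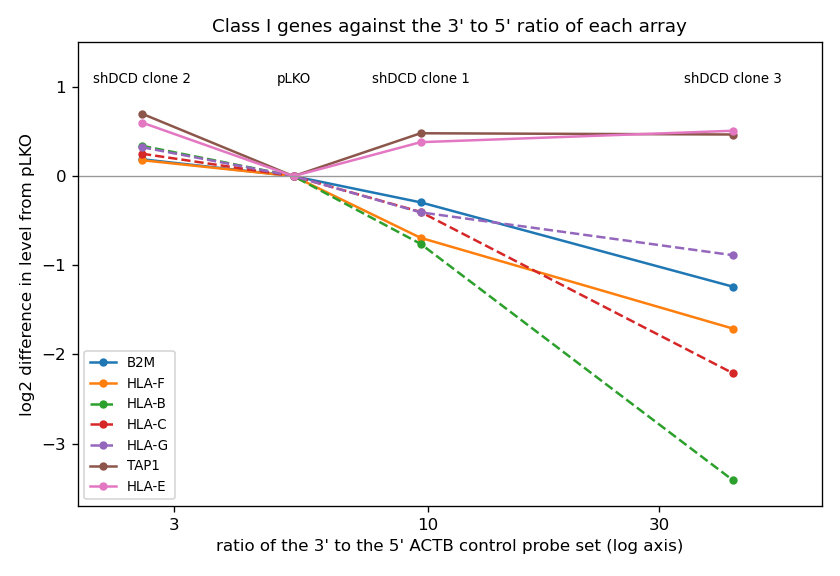
Log2 difference from pLKO (vertical axis) of 7 class I genes, each by its brightest probe set, against the ACTB 3'/5' ratio of each array (log axis), with lines joining the 4 arrays of a gene. B2M, HLA-F, HLA-B, HLA-C and HLA-G are lower on each array with a higher ratio. TAP1 and HLA-E, by these probe sets, lie between 0.38 and 0.70 on all 3 shDCD arrays. In the values as deposited HLA-E was below pLKO in clones 1 and 3 and TAP1 in clone 3. The HLA-E probe set without shared probes by its name had -0.29, 0.03 and -0.46 in clones 1 to 3, the order of B2M. The remaining HLA-E probe set had -0.58, 0.21 and -0.23. The tested members TAPBP, PSMB8, PSMB10 and ERAP1 are not plotted, and none of their tested probe sets had the order of B2M.

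Genes that work beside the members were read from lists, again each by its brightest probe set. Those of the proteasome and the heavy chains are named for their place in the pathway, after their values were seen. The constitutive catalytic subunits PSMB5, PSMB6 and PSMB7, which the immunoproteasome subunits replace, lay on both sides of pLKO, with medians of 0.02, 0.62 and -0.67 in clones 1 to 3, next to 0.25, 0.41 and -1.86 for PSMB8 and PSMB10, the last with both on the floor. The 3 proteasome activator genes tested also lay on both sides, and PSME1, part of the interferon-inducible cap, had log2 differences of -0.13, 0.22 and -1.57. Of 6 folding and quality control genes of the endoplasmic reticulum, 5 were below pLKO in all 3 clones by their brightest probe sets, against 20.0% of all tested probe sets, and 0 were above, with medians of -0.70, -0.60 and -0.90 in clones 1 to 3. Among them were HSPA5 (-1.65, -1.65 and -2.60), PDIA3, which works with TAPBP in the loading complex (-0.92, -1.14 and -0.98), and the tapasin-like protein TAPBPL, which was on the floor in clones 1 and 3 and at -0.46 in clone 2. Each of the 5 also had a tested probe set above pLKO in 1 clone, such as those of HSPA5 (0.76 in clone 3), PDIA3 (1.22 in clone 3), UGGT1 (0.35 in clone 3), CALR (0.09 in clone 3) and TAPBPL (0.42 in clone 2), so the count rests on the choice of the brightest. HSPA5 was the list's 1 gene at least 3-fold lower in each comparison, and 0 genes of any list were called by limma after adjustment. HSPA5 was the 1 of these 6 at an unadjusted p under 0.05 in limma. The paper had reported lower PDIA3 and HSPA5 from these same arrays, and the list was chosen with earlier results known. The 5 of 6 is thus a description and not a test on new data, and the 20.0% beside it counts probe sets, not genes. Of 6 other peptidases of the pathway THOP1 was below pLKO in all 3 clones, against 20.0% of all tested probe sets. NPEPPS and NRDC were above, against 19.4%.

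Regulators of the pathway showed no common direction. For each count in this paragraph, the shares over all tested probe sets were 20.0% below pLKO in all 3 clones and 19.4% above. Of 12 transcription factors of class I genes 3 were below pLKO in all 3 clones, the RFX complex subunits RFXAP and RFXANK and the NF-kB subunit RELA, and 0 were above. RFXAP was on the floor in clone 1 and RFXANK in clone 3. NLRC5, the class I transactivator, named after its values were seen, had intensities of 14.1, 29.4 and 22.4 in clones 1 to 3, against 18.4 in pLKO. IRF1, an interferon regulatory factor, likewise named, had log2 differences of 0.09, -0.31 and 0.36. Of 10 interferon receptor and signalling genes tested IFNAR2 was below and TYK2 above in all 3 clones. Of 16 interferon-stimulated genes tested, IFIT2 and IFIT3 were below, and ISG15 (0.67, 1.03 and 0.80), RIGI and MX1 were above, with list medians of 0.14, 0.19 and -0.24 in clones 1 to 3. IFIT2 was on the floor in clone 3. Among class I-like proteins AZGP1 was below and HFE, which binds B2M, above, of 3 tested. Of the NKG2D ligands, which mark stressed cells for natural killer cells, ULBP2 was below and none above of 3 tested. Of the MHC class II genes HLA-DMB was above and none below of 3 tested.

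**Figure D5:**
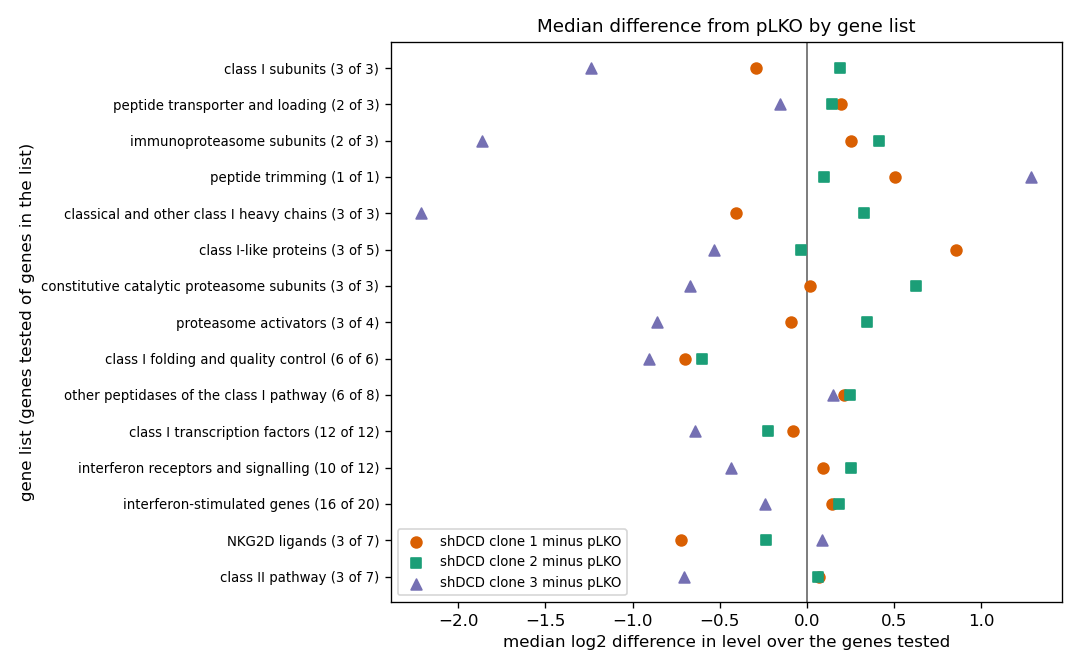
Median log2 difference from pLKO (horizontal axis) over the tested genes of each list, with 1 symbol per shDCD clone. By the brightest probe sets, the folding and quality control list has all 3 medians below 0, at -0.70, -0.60 and -0.90, while the class I subunits have -0.29, 0.19 and -1.24 in clones 1 to 3.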

How the data were processed

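RNA of 4 cultures of MDA-MB-361 cells was measured on Affymetrix U133 Plus 2.0 arrays, 3 of shDCD clones and 1 of pLKO. The deposited values are linear intensities, 1 per probe set and array. The methods name dChip for the authors' analysis, and what made the deposited intensities is not given in the sources used. Arrays were assigned to groups by their titles, and no column of another sample was present.

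Intensities of 0 were set to 0.1, all 54675 probe sets were quantile normalized, 62 control probe sets were left out, values under 16 were set to 16 and log2 was taken. A probe set entered the tests if its mean over the 4 arrays reached the median probe set's. Gene names follow the platform annotation, in which 41097 probe sets have 1 gene, 1801 several and 11777 none here, and 41043 of the 41097 carry a symbol found in the current RefSeq table. The probe set with the highest mean stands for a gene. Probe set levels were not compared between probe sets. limma 3.58.1 (R 4.3.3) compared the groups with Benjamini-Hochberg adjustment, and its script was tested on simulated data. All 25 member probe sets are named. Of each other list, up to 3 genes per direction are named that lie on 1 side of pLKO in all clones. They are those with the largest smallest difference. Also named are DCD, cell type markers, UGGT1 and CALR for their other probe sets, and genes marked as named after their values were seen. The members and lists were chosen with earlier results of these data known. Under-floor shares were 43.9%, 39.3% and 55.1% in clones 1 to 3 and 43.4% in pLKO, and the number of arrays limits the precision. Promoter sequences come from RefSeq (GRCh38.p14). Alternatives were median centring, values as deposited, floors of 1 and 64, no filter, other probe set choices, a 2-fold rule, a trended limma fit and each clone left out with the rest normalized anew. The counts of members on 1 side of pLKO or in 1 order of the arrays were added after seeing the data. Figures were drawn with matplotlib 3.10.9.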

Additional observations from a re-analysis of the deposited data

How the results depend on the processing

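Over the alternatives, the main values stayed within 1 SD, or counts within 1.5 times, in 72 of 95 cases and moved further in 23. For the medians over member genes this SD was that between the medians of the 3 clones. The clone 1 median of 0.25 thus counted as unmoved at -0.21 with median centring and -0.25 as deposited, though its sign changed. Many of the counts that stayed were 0 in both settings. The mean differences of single members stayed within 1 SD between clones in 88 of 100 cases, with 10 moved and 2 reversed. No member gene that passed the filter was at least 3-fold, or in that alternative 2-fold, lower or higher in all comparisons under any alternative run. PSMB9, which did not pass, was so with a floor of 1 (log2 differences 3.13, 2.70 and 1.76), against a pLKO intensity of 2.9. Both reversals were of HLA-E, whose mean log2 difference of 0.50 became -0.026 in the values as deposited and -0.24 without _x_at and _s_at probe sets. Of values that were within the spread between clones, B2M had 0.37 where its dim probe set 232311_at stood for it, and with a floor of 1 TAP2 had -0.21 and PSMB9 2.53, against -0.45, 0.39 and 0.30. TAP1 (0.55) had 0.38 with median centring, 0.24 as deposited and 0.20 with a floor of 64, and TAPBP (-0.43) had -0.80 and -0.94 with the first 2 of these. The median over member genes in clone 3 was -2.02 in the values as deposited and 0 with a floor of 64, against -1.01, and it was -1.66 with median centring, -0.39 with no filter and -0.62 without _x_at and _s_at probe sets. The median of all tested probe sets moved by -0.33, 0.08 and -0.36 in clones 1 to 3 with median centring and by -0.38, 0.36 and -0.91 as deposited.

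Members below pLKO in all clones numbered 1 with a floor of 64 (6.02% of all probe sets) and between 2 and 8 with a clone left out, 8 of 15 without clone 2 (32.0% of all), against 2. Members above numbered 1 in the values as deposited (9.94% of all) and between 3 and 5 with a clone left out, 5 without clone 3 (31.1% of all), against 3. Over all probe sets the 3-fold rule gave 49 lower and 10 higher. The lower count was 90 with median centring, 96 as deposited, 22 with a floor of 64, 210 at 2-fold and between 95 and 274 with a clone left out, the highest without clone 2. The higher count was 246 with a floor of 1, 3 with a floor of 64, 173 at 2-fold and between 34 and 142 with a clone left out, again highest without clone 2. limma called 389 lower and 4 higher with a floor of 64 and 1308 lower and 18 higher without the filter, against 0. In these settings 70.6% and 28.7% of probe sets had no variance between the clones because their levels lay on the floor, and the members called were 0 with the floor of 64 and 1 without the filter, HLA-F 221978_at, with all clones on the floor.

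No paired analysis was possible because pLKO has a single array. Limits of these data are 1 array per hairpin, 1 control array, clone 3 with high 3'/5' ratios, and 11 member probe sets too dim to test.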
